A study of Mus musculus with 34 samples.

Results

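Astrocytes keep the surroundings of neurons stable, and the 7 genes described here, Aqp4, Apoe, Clu, Glul, Dio2, Ptprz1 and Gja1, each serve a part of that work. They are 7 of the 8251 genes named on the arrays. Every probe set annotated with only 1 of these symbols was taken, which gave 14 probe sets, and the value of a gene is that of its probe set with the highest mean log2 signal over all 34 arrays. The probe sets were thus chosen by mean signal, which is given only as a description. The symbols themselves were put together with earlier results of these arrays known, so the number of members that changed is not independent evidence about astrocytes.

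RNA was measured in the hippocampus and the neocortex of male mice on Affymetrix oligonucleotide arrays. Kainate mice received 3 intraperitoneal injections of 15 mg/kg at intervals of 2 h on postnatal day 23, nicotine mice received 10 mg/kg on the same schedule, and saline mice received the solvent. The mice that survived were killed on postnatal day 30. The series holds 5 kainate, 6 nicotine and 6 saline arrays for each region. Kainate activates a class of glutamate receptors and provokes seizures, and nicotine activates nicotinic acetylcholine receptors. The labels name no strain, transgene or deleted allele, and only survivors were sampled. Replicates of a group are labelled as biological, 1 tissue sample to an array.

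Aqp4 encodes the water channel of astrocyte endfeet at blood vessels, and Gja1 encodes connexin 43, the gap junction protein that couples astrocytes to each other. Apoe and Clu encode secreted lipoproteins, apolipoprotein E and clusterin, that carry lipid between brain cells. Glul encodes glutamine synthetase, which converts glutamate taken up from synapses into glutamine, and Dio2 encodes the type 2 deiodinase, which makes active thyroid hormone for neighbouring neurons. Ptprz1 encodes a receptor tyrosine phosphatase with a secreted form, phosphacan, in the extracellular matrix. Other cells share some of them, since microglia can make Apoe and neurons can make Clu. In tissue arrays, more cells of a type and more RNA per cell cannot be told apart.

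All values are MAS5 signals on a linear scale, on which the trimmed mean of each array had been set to about the same level (1000.5 to 1000.6). The median signal of an array was 403.1 to 438.6 in the kainate hippocampus, 394.2 to 434.6 in the nicotine hippocampus and 380.6 to 390.9 in the saline hippocampus, so the drug arrays there had the higher medians throughout. Of 13 listed neuron markers 11 were measured, and the dimmest, Gad2, averaged 380 in the kainate hippocampus and 325 in the saline hippocampus. The summed signal of the neuron markers was 105000 to 114400 in the kainate hippocampus and 109500 to 127400 in the saline hippocampus. Bright probe sets weigh most in this sum, and Snap25 alone averaged 34510 in the saline hippocampus. The 66 control probe sets were used to split the arrays into 4 clusters, a number that was set and not estimated. The largest held 22 arrays from all 6 groups, and 1 cluster held only saline hippocampus replicate 2. Members tested in each comparison were 7 of 7, since the brightest probe set of each passed the filter on dim signals, and 13 of the 14 probe sets passed it.

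The members ranged widely in signal. Apoe lay at the 99.9th percentile of probe sets in the hippocampus, Clu at the 99th and Gja1 at the 97.9th. Aqp4 lay at the 92.7th percentile there, Glul at the 88.7th, Dio2 at the 83.7th and Ptprz1 at the 82.3rd. Signals of different probe sets are not on 1 scale, so these places give the brightness of the probe sets and not the order of the transcripts.

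Start-site sequences are shown for 4 members, 3 that were higher with kainate in the hippocampus and Dio2, which differed between the saline regions, so that their unlike makeup can be read beside the values. The RefSeq table of promoters (build GRCm38.p6, 250 bases before to 50 bases after a start) matched 5 of the 7 members. No sequence is shown for Aqp4, Clu and Glul. Shown are Apoe (chr7:19699139-19699438, minus strand, the start farthest upstream of 3), Gja1 (chr10:56377050-56377349, plus strand), Ptprz1 (chr6:22875252-22875551, plus strand) and Dio2 (chr12:90738989-90739288, minus strand). Capitals mark matches to the AP-1 motif TGANTCA, the cAMP response element TGACGTCA, the TATA box TATAAA, the CCAAT box CCAAT and the GC box GGGCGG, each searched on both strands. No match overlapped another.
Apoe: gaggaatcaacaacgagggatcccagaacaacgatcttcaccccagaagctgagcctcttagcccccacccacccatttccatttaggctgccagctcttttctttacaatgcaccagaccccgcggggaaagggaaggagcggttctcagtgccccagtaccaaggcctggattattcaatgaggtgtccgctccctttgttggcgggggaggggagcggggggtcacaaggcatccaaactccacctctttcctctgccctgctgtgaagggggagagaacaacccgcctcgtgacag
Gja1: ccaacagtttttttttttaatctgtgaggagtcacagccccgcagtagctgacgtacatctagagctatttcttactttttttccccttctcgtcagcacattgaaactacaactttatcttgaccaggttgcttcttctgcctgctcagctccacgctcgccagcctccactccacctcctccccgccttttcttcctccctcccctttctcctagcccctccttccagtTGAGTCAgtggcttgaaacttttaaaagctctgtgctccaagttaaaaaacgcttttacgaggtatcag
Ptprz1: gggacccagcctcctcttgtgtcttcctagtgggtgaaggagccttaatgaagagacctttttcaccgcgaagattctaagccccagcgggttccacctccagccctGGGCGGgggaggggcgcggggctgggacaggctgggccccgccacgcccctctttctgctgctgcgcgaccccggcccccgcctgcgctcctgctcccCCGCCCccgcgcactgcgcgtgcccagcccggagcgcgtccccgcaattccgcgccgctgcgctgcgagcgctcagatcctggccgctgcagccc
Dio2: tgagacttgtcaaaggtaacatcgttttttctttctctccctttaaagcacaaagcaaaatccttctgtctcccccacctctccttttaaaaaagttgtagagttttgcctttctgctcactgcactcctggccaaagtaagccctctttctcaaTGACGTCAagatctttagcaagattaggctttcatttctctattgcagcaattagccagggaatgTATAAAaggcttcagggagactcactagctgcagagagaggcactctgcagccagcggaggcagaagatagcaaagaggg
The Gja1 window held an AP-1 match that begins 19 bases before the start, a motif found in 7.81% of all 32851 windows of 300 bases. Dio2 held a cAMP response element 95 bases before the start, found in 1.79% of windows, and a TATA box 30 bases before it, found in 13.6%. Ptprz1 held GC boxes at 143 and 45 bases before the start, a motif found in 35.7% of windows, and 71.7% of its bases were G or C, against 44.7% for Dio2. The Apoe window held no match to these letters, the CCAAT box (37.4% of windows) included. A match describes the letters and not a bound site.

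The comparison of kainate with saline in the hippocampus asks what the drug left behind in the region 1 week later. Of the 7 members, 5 were higher (Aqp4, Clu, Apoe, Gja1 and Ptprz1), by 1.41-fold to 1.83-fold, and none was called lower. In the same comparison 2.79% of all 8695 tested probe sets were called at an adjusted p under 0.05, and 1.84% were called higher. The same 5 members had every kainate array above every saline one, as 2.31% of tested probe sets did. The median log2 fold change was 0.55 over the members and 0.01 over all probe sets tested.

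Aqp4 signals in the kainate hippocampus were 6888.9, 7538.5, 4382.9, 4959.6 and 6335.5 in the 5 arrays, against a lowest of 2901.4, a median of 3252.1 and a highest of 3649.6 in the saline hippocampus. Every kainate array lay above every saline array, and the kainate arrays spread more widely. The means were 6021 ± 1320 (SD, n = 5) and 3232 ± 276 (SD, n = 6). Aqp4 was 1.83-fold higher (log2 fold change 0.87 ± 0.13 SE, limma adjusted p = 0.000163). Its dimmer probe set gave 1.85-fold (0.89 ± 0.17 SE, limma adjusted p = 0.00307).

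Gja1, the gap junction gene, had signals of 16237.1, 12957.9, 11663.2, 12038.3 and 13900.6 in the kainate hippocampus, against a lowest of 7576.5, a median of 8513.7 and a highest of 10781.8 in the saline hippocampus. The groups did not overlap. The mean was 13360 ± 1830 with kainate and 8810 ± 1250 with saline (SD, n = 5 and 6). Gja1 was 1.52-fold higher (log2 fold change 0.60 ± 0.11 SE, limma adjusted p = 0.00134). The dimmer Gja1 probe set gave 0.45 ± 0.21 SE, which was not called (limma adjusted p = 0.329). Within the largest control cluster the call of the brighter Gja1 probe set ended (log2 fold change 0.51, adjusted p = 0.18).

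Clu, which encodes clusterin, had signals of 25631.9, 31282.4, 23855.4, 22472.7 and 29053.1 in the kainate hippocampus, against a lowest of 12180.3, a median of 16036 and a highest of 17912.4 in the saline hippocampus. The lowest kainate array lay well above the highest saline array. The means were 26460 ± 3650 and 15610 ± 2130 (SD, n = 5 and 6), and Clu was 1.70-fold higher (log2 fold change 0.76 ± 0.11 SE, limma adjusted p = 0.000119). The dimmer Clu probe set gave 1.72-fold (0.78 ± 0.08 SE, limma adjusted p = 1.9e-06).

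Apoe, the brightest member, had signals of 63863.2, 84230.5, 69825.3, 68030.7 and 70379.8 in the kainate hippocampus, against a lowest of 42133.5, a median of 49472 and a highest of 54904.1 in the saline hippocampus. The groups were apart here too. The means were 71270 ± 7680 and 48620 ± 4790 (SD, n = 5 and 6), and Apoe was 1.47-fold higher (log2 fold change 0.55 ± 0.08 SE, limma adjusted p = 0.000294). The other Apoe probe set had a mean of 80.48 in the kainate hippocampus and 103.8 in the saline hippocampus, below the filter, and was not tested. The Apoe call ended within the largest control cluster (log2 fold change 0.52, adjusted p = 0.0875), and the mean of both probe sets gave 0.04 (0.972).

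Ptprz1 had signals of 2525.8, 2479.5, 2091.3, 2189.4 and 2044.2 in the kainate hippocampus, against a lowest of 1200.1, a median of 1667.2 and a highest of 1785.1 in the saline hippocampus. The ranges were again separate. The means were 2266 ± 223 and 1609 ± 215 (SD, n = 5 and 6), and the brightest probe set was 1.41-fold higher (log2 fold change 0.50 ± 0.11 SE, limma adjusted p = 0.00807). The other Ptprz1 probe sets gave 0.21 ± 0.16 SE (limma adjusted p = 0.599) and 0.29 ± 0.38 SE (limma adjusted p = 0.793), so the call rests on 1 of 3 probe sets. Centring each array on its median took Ptprz1 out of the called genes (adjusted p = 0.0503), as did the largest control cluster alone (0.155) and the mean of its probe sets (0.391).

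Dio2, the thyroid hormone deiodinase, ran the other way without passing the test. Its signals in the kainate hippocampus were 1438.7, 1886.4, 1542, 1378.6 and 1740.2, against a lowest of 1821.7, a median of 2241.9 and a highest of 2396.8 in the saline hippocampus. Kainate replicate 2 lay within the saline range and the other 4 lay below it. The log2 fold change was -0.42 ± 0.11 SE (95% interval -0.66 to -0.18, limma adjusted p = 0.0502). With median centring it was -0.53 and was called (adjusted p = 0.0155), and it was called with the fit over all 34 arrays (0.0173), with a pseudocount of 64 (0.0487) and with the filter at the 50th percentile (0.0424). It was also called without saline hippocampus replicate 4 (0.041), without saline hippocampus replicate 5 (0.0367) and without kainate hippocampus replicate 2 (0.0313).

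Glul, the glutamine synthetase gene, had signals of 3998.5, 2175.9, 1845.2, 2058.2 and 3519.7 in the kainate hippocampus, against a lowest of 2072.5, a median of 3037.6 and a highest of 3749.8 in the saline hippocampus. The groups overlapped over most of their range. The log2 fold change was -0.16 ± 0.24 SE (95% interval -0.66 to 0.34, limma adjusted p = 0.822), so a change of either sign of that size could not be seen with these arrays. The dimmer Glul probe set gave 0.23 ± 0.20 SE (limma adjusted p = 0.665).

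**Figure D1:**
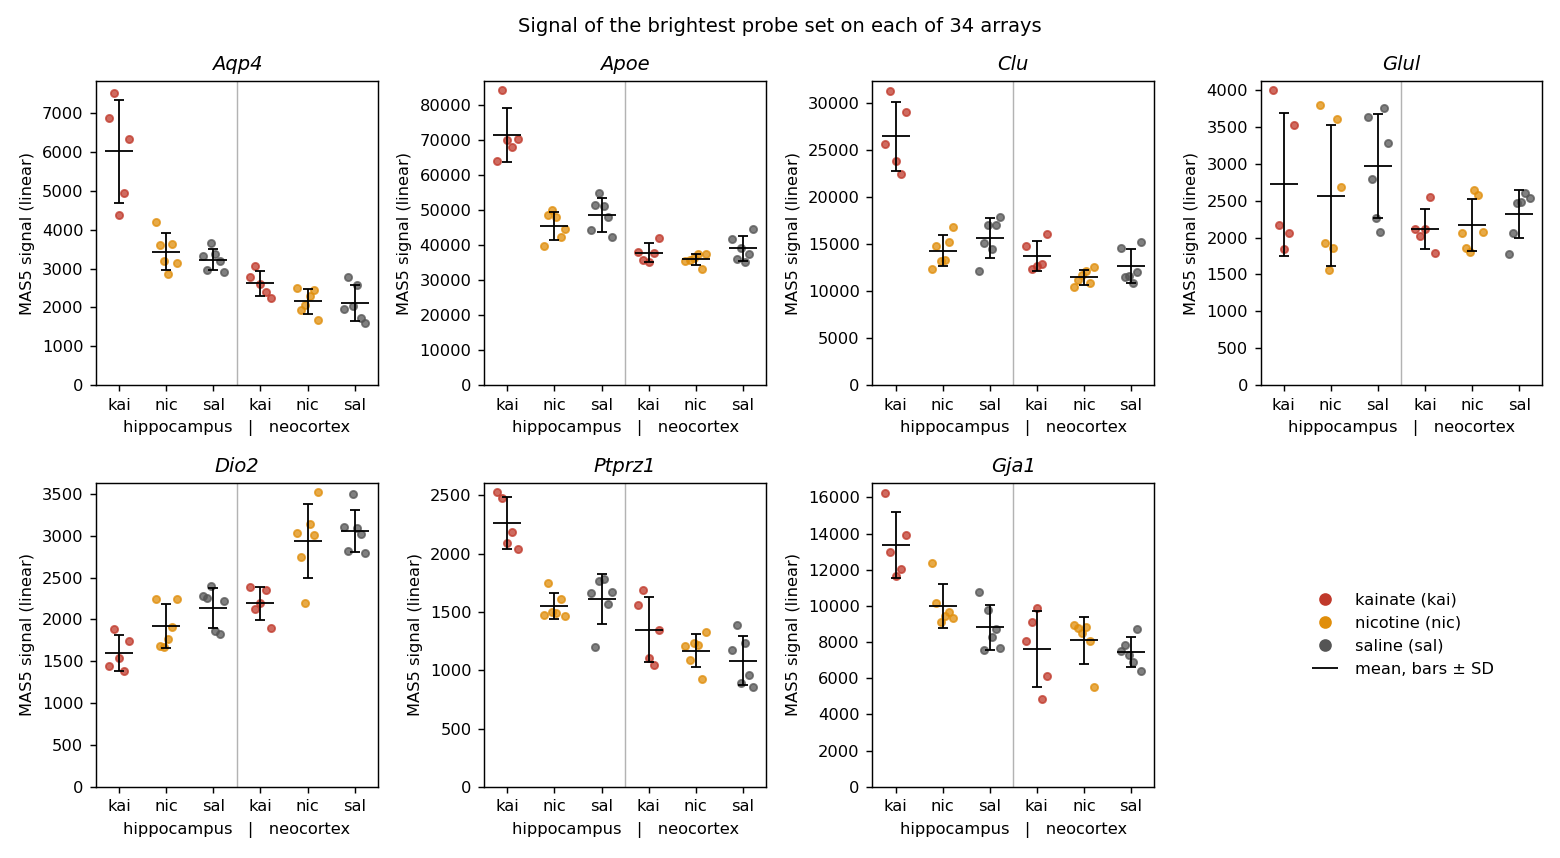
MAS5 signal (linear scale from 0) of each member's brightest probe set on each of the 34 arrays, with kainate, nicotine and saline from left to right in the hippocampus and then the neocortex; points are arrays, and bars are the mean ± SD of 5 or 6 arrays. The kainate hippocampus stands above all other groups for Aqp4, Apoe, Clu and Ptprz1, while Dio2 is highest in the saline neocortex (mean 3055) and lowest in the kainate hippocampus (mean 1597).

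**Figure D2:**
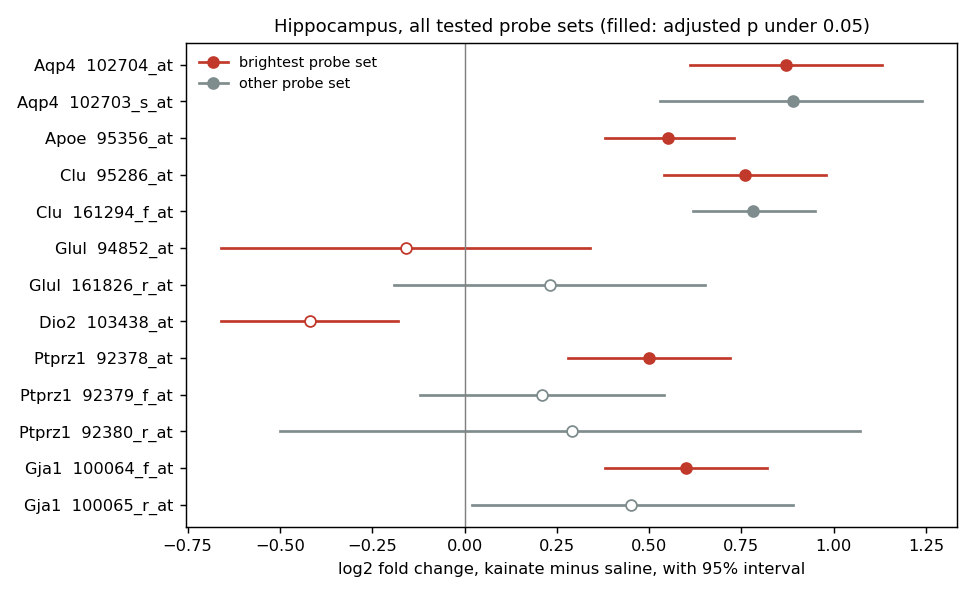
Log2 fold change of kainate minus saline in the hippocampus for the 13 tested probe sets of the members, with 95% intervals; red marks the brightest probe set of a gene, grey the others, and filled points have an adjusted p under 0.05. Both Aqp4 probe sets (0.87 and 0.89) and both Clu probe sets (0.76 and 0.78) lie close together, while the 3 Ptprz1 probe sets run from 0.21 to 0.50.

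Other genes of the same functions were read from lists. Among 13 tested lipid carriers and receptors, 1 was higher in the kainate hippocampus, Abca1, the transporter that loads lipid onto apolipoprotein E, at 1314 ± 130 with kainate and 480.9 ± 201 with saline (2.89-fold, limma adjusted p = 0.000463). None of 8 genes of water, potassium and gap junctions (median 0.16) and none of 2 tested genes of glutamate handling (median 0.23) was called in limma. Of 8 thyroid hormone genes 1 was lower, Crym, a thyroid hormone binding protein, at 2378 ± 457 with kainate and 3509 ± 693 with saline (log2 fold change -0.56, limma adjusted p = 0.0357). Of 11 genes for Ptprz1 ligands and matrix partners 1 was higher, Mdk, the growth factor midkine that binds Ptprz1 (1.56-fold, limma adjusted p = 0.0066). The list medians were 0.12 for lipid carriers, -0.09 for thyroid hormone and -0.06 for Ptprz1 partners. Over all tested probe sets 1.84% were called higher and 0.955% lower.

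Among 21 tested genes of astrocyte identity, 3 were higher in the kainate hippocampus and none lower: Plpp3 (1.54-fold, limma adjusted p = 0.0038), Cst3 (1.36-fold, 0.00619) and Sparcl1 (1.23-fold, 0.0343), with a list median of 0.25. Their 22 measured genes summed to 123200 to 149100 in the kainate hippocampus and 109000 to 117000 in the saline hippocampus. Bright probe sets weigh most in such a sum, and Cst3 alone averaged 42110 with kainate and 30950 with saline. Of 15 tested genes of reactive astrocytes 8 were higher, led by Gfap, the intermediate filament of astrocytes (4.69-fold, limma adjusted p = 4.37e-12), and Serpina3n, a secreted protease inhibitor (3.05-fold, 2.25e-08). All 15 tested markers of microglia and macrophages were higher, with a median of 1.90, and the 18 measured ones summed to 51840 to 84860 with kainate and 18460 to 21280 with saline. In the kainate hippocampus 1 of these 18 markers had a mean under 100, and in the saline hippocampus 5 did, with none of the signals at 0. The filter mean took in the kainate arrays, so markers dim with saline could be tested because they were bright with kainate. The count of all 15 and the median of 1.90 are therefore partly set by the filter. The part of microglia in the levels of the members was not tested. No gene was called among 7 oligodendrocyte (median 0.03), 2 oligodendrocyte precursor (-0.01), 11 neuron (-0.11), 7 endothelial (0.01) and 4 choroid plexus (-0.01) markers tested with limma.

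**Figure D3:**
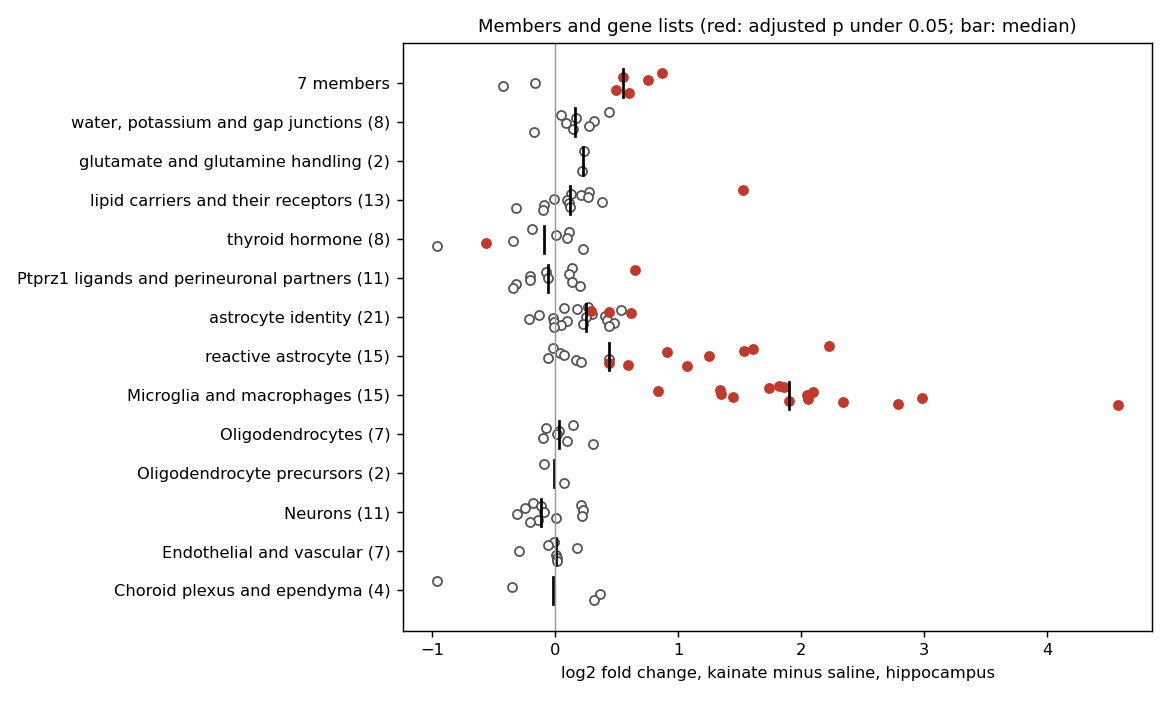
Log2 fold change of kainate minus saline in the hippocampus for the 7 members and the genes of each list (number tested in brackets); red points have an adjusted p under 0.05, open points do not, and the black bar is the list's median. The members' median is 0.55, that of astrocyte identity 0.25, that of reactive astrocytes 0.44 and that of microglia 1.90.

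In the neocortex none of the 7 members was called between kainate and saline in limma, 3 of them with an unadjusted p under 0.05 (5.57% of all probe sets). The share called over all probe sets at an adjusted p was 0.0115%, which is 1 probe set, of Gfap (2.10-fold, limma adjusted p = 0.00139). Dio2 had the smallest p of the members. Its signals were 2390.1, 2120.3, 2201.2, 2348.9 and 1896.1 in the kainate neocortex, against a lowest of 2794.2, a median of 3054.2 and a highest of 3495 in the saline neocortex. All 5 kainate arrays lay below all 6 saline arrays, as 0.253% of tested probe sets did. The log2 fold change was -0.48 ± 0.10 SE (95% interval -0.69 to -0.26), the limma adjusted p was 0.251, and with the control cluster as a block it was 0.0487.

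Aqp4 in the neocortex had signals of 2788.2, 3074.8, 2596.3, 2407.6 and 2255.5 with kainate, against a lowest of 1612.3, a median of 1995 and a highest of 2794.4 with saline, and the groups overlapped (log2 fold change 0.33 ± 0.14 SE, limma adjusted p = 0.866). Ptprz1 gave 0.31 ± 0.15 SE there (0.889) and Clu gave 0.13 ± 0.09 SE (0.903). Apoe averaged 37730 ± 2690 with kainate and 38990 ± 3620 with saline (SD, n = 5 and 6), with a 95% interval of the log2 fold change of -0.19 to 0.10. For Gja1 that interval was -0.33 to 0.32 and for Glul -0.38 to 0.13. The dimmer Gja1 probe set gave 0.55 ± 0.25 SE (limma adjusted p = 0.889). Markers of microglia summed to 20800 to 25700 in the kainate neocortex and 18200 to 20920 in the saline neocortex, and 0 of 12 tested passed the limma test.

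Whether the kainate effect itself differed between regions was tested as the hippocampal effect minus the neocortical effect, over all 34 arrays. It was larger in the hippocampus for 2 of the 7 members, Apoe and Clu, against 0.794% of all probe sets (0.725% larger in the hippocampus). For Apoe the difference was 0.60 ± 0.11 SE on the log2 scale (limma adjusted p = 0.0012), and for Clu 0.64 ± 0.15 SE (0.0199), with 0.58 ± 0.12 SE (0.00533) from the dimmer Clu probe set. The Apoe call was lost within the largest control cluster (0.56, adjusted p = 0.0643) and with the mean of its probe sets (0.29, 0.866). The Clu call was lost without kainate neocortex replicate 2 (adjusted p = 0.0565), without kainate hippocampus replicate 2 (0.065), without kainate hippocampus replicate 5 (0.0585) and with median centring (0.144). Gja1 had a difference of 0.61 ± 0.20 SE (limma adjusted p = 0.213) and Aqp4 of 0.54 ± 0.19 SE (0.295), which did not pass. The dimmer Gja1 probe set gave -0.10 ± 0.34 SE (limma adjusted p = 0.951). For Dio2 the difference was 0.06 ± 0.15 SE (95% interval -0.25 to 0.37), with an effect of -0.42 in the hippocampus and -0.48 in the neocortex.

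**Figure D4:**
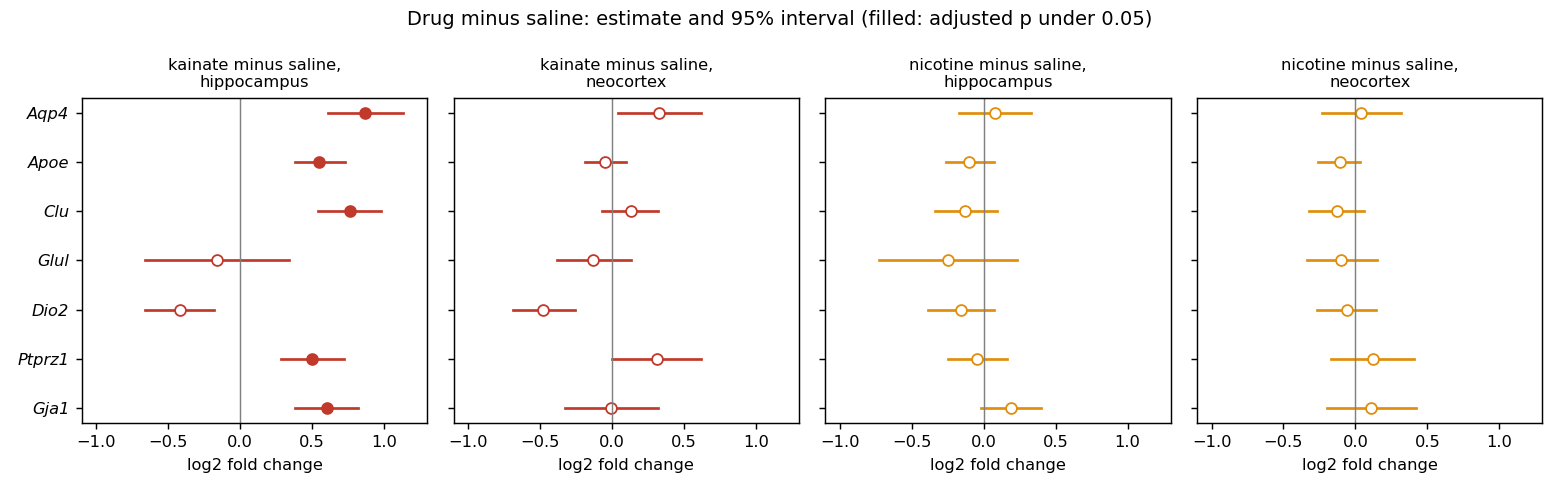
Log2 fold change of each drug minus saline, with its 95% interval, for the 7 members in the hippocampus and the neocortex; filled points have an adjusted p under 0.05. Filled points appear only for kainate in the hippocampus (Aqp4, Apoe, Clu, Ptprz1 and Gja1), and Dio2 lies below 0 with kainate in both regions (-0.42 and -0.48).

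Nicotine was set against the same saline arrays. None of the 7 members was called in either region with limma, and the share called over all probe sets was 0% in each. None had an unadjusted p under 0.05 by its brightest probe set, against 5.8% of all probe sets in the hippocampus and 9.6% in the neocortex. The dimmer Gja1 probe set had an unadjusted limma p of 0.0497 in the neocortex (log2 fold change 0.50 ± 0.24 SE, adjusted p = 0.519). The smallest unadjusted p of the members in the hippocampus was that of Gja1 (0.0773), which averaged 10000 ± 1200 with nicotine and 8810 ± 1250 with saline (log2 fold change 0.19, 95% interval -0.02 to 0.40). The hippocampal intervals were -0.17 to 0.33 for Aqp4, -0.26 to 0.07 for Apoe, -0.34 to 0.09 for Clu, -0.39 to 0.07 for Dio2, -0.25 to 0.16 for Ptprz1 and -0.73 to 0.23 for Glul. In the neocortex they were -0.23 to 0.32 for Aqp4, -0.26 to 0.03 for Apoe, -0.32 to 0.06 for Clu, -0.27 to 0.14 for Dio2, -0.17 to 0.41 for Ptprz1, -0.20 to 0.42 for Gja1 and -0.34 to 0.15 for Glul. The difference between the regions in the nicotine effect was called for 0 of 7 members in limma, where 0% of all probe sets were called. At an unadjusted p under 0.05 there were 0 members and 3.77% of all probe sets.

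Kainate was also compared with nicotine, with which it shares the kainate arrays of the comparison above. In the hippocampus 5 of 7 members were higher with kainate, where 2.42% of all probe sets were called and 2.04% were called higher. Clu was 1.85-fold higher (log2 fold change 0.89 ± 0.11 SE, limma adjusted p = 1.65e-05), with a lowest of 12360.3, a median of 14025 and a highest of 16833.8 in the nicotine hippocampus. Aqp4 was 1.73-fold higher (limma adjusted p = 0.000531), Apoe 1.57-fold (4.12e-05) and Ptprz1 1.46-fold (0.00375), and for these 4 genes every kainate array exceeded every nicotine one, as for 2.27% of tested probe sets. The other Ptprz1 probe sets gave 0.28 (limma adjusted p = 0.568) and -0.18 (0.94). With the mean of all probe sets of a gene the calls of Apoe (0.17, adjusted p = 0.918) and Ptprz1 (0.22, 0.747) were lost. Gja1 was 1.33-fold higher (log2 fold change 0.41 ± 0.11 SE, limma adjusted p = 0.0364), with overlapping ranges because nicotine replicate 1 reached 12347.1. That call was lost with 8 of the 11 arrays left out in turn, at most to an adjusted p of 0.126 without kainate replicate 1, and with median centring (0.144), the fit over all 34 arrays (0.122), the largest control cluster alone (0.466) and the mean of its probe sets (0.117). Dio2 gave -0.26 ± 0.11 SE (0.378) and Glul 0.09 ± 0.24 SE (0.957). In the neocortex 0 of 7 were called in limma (0.0345% of all probe sets), 2 with an unadjusted p under 0.05 (3.99% of all probe sets): Dio2 (-0.41 ± 0.10 SE, adjusted p = 0.433) and Clu (0.26 ± 0.09 SE, 0.998).

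The saline arrays give the levels of the regions without a drug. Of the 7 members, 4 were higher in the saline hippocampus than in the saline neocortex (Aqp4, Ptprz1, Apoe and Clu) and 1 was lower (Dio2), where 10.5% of all probe sets were called, 5.36% higher and 5.19% lower. These saline hippocampus arrays also serve as the controls for kainate. Aqp4 signals in the saline hippocampus had a lowest of 2901.4, a median of 3252.1 and a highest of 3649.6. In the saline neocortex these were 1612.3, 1995 and 2794.4, with no overlap, as in 3.28% of probe sets with the hippocampus above. Aqp4 was 1.55-fold higher (log2 fold change 0.63 ± 0.13 SE, limma adjusted p = 0.000658). Its dimmer probe set gave 0.67 ± 0.15 SE (limma adjusted p = 0.00245), with overlapping ranges. Ptprz1 had a lowest of 1200.1, a median of 1667.2 and a highest of 1785.1 in the saline hippocampus, against 856.7, 1066 and 1386.3 in the saline neocortex, and the ranges overlapped (1.49-fold, limma adjusted p = 0.00104). The other Ptprz1 probe sets gave 0.19 (0.623) and -0.39 (0.524) in limma, and the mean of all 3 gave 0.13 (0.731). Apoe was 1.25-fold higher (log2 fold change 0.32 ± 0.07 SE, limma adjusted p = 0.00247), and the mean of its probe sets gave 0.16 (0.792).

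Clu was 1.24-fold higher in the saline hippocampus (log2 fold change 0.31 ± 0.10 SE, limma adjusted p = 0.0384), and its dimmer probe set 1.34-fold (0.000226). The call of the brighter Clu probe set was lost in 8 of the 12 fits that left out 1 saline array, at most to 0.108 without saline hippocampus replicate 6, and with no filter on dim signals (0.0548), with array clusters as a block (0.118) or in the largest cluster alone (0.219). Dio2 had a lowest of 1821.7, a median of 2241.9 and a highest of 2396.8 in the saline hippocampus, against 2794.2, 3054.2 and 3495 in the saline neocortex, and no hippocampal array reached a neocortical one, as in 2.93% of probe sets (log2 fold change -0.51 ± 0.10 SE, limma adjusted p = 0.000486). Glul (0.33 ± 0.19 SE, 0.34) and Gja1 (0.24 ± 0.13 SE, 0.307) were not called. The dimmer Glul probe set had the opposite sign (-0.22 ± 0.17 SE, limma adjusted p = 0.513), and the dimmer Gja1 probe set gave 0.49 ± 0.23 SE (0.202). Of the 21 astrocyte identity genes 7 were higher in the saline hippocampus and none lower, against 5.36% and 5.19% of all probe sets. Other lists were mixed. Of 15 reactive astrocyte genes 5 were higher and 2 lower, and of 13 lipid carriers and receptors 3 were higher and none lower. Of 8 genes of water, potassium and gap junctions 1 was higher and 1 lower, with a median of -0.09. Of the 8 thyroid hormone genes 2 were higher, Crym (3.69-fold, limma adjusted p = 7.4e-13) among them. The 3 lower were Hr, a corepressor that thyroid hormone induces (log2 fold change -0.95, 1.16e-05), Klf9 (-0.39, 0.00166) and Nrgn (-0.53, 0.0023).

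Set in order over the 6 groups, Aqp4, Apoe, Clu and Ptprz1 had their highest level in the kainate hippocampus, and there alone the group did not overlap with the next in the order. Gja1 was highest there too, at 13360, but overlapped with the nicotine hippocampus at 10000. The ratio of the highest to the lowest group mean was 2.85 for Aqp4, 2.31 for Clu, 2.09 for Ptprz1, 1.98 for Apoe, 1.91 for Dio2, 1.80 for Gja1 and 1.40 for Glul. For Dio2 the order ran from 3055 in the saline neocortex through 2941 in the nicotine neocortex, 2191 in the kainate neocortex, 2141 in the saline hippocampus and 1920 in the nicotine hippocampus to 1597 in the kainate hippocampus, and neighbours in it overlapped. For Glul all neighbours overlapped.

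In the hippocampus Glul had the widest spread of the members, with a coefficient of variation of 35.7% with kainate, 37% with nicotine and 23.7% with saline. In the neocortex it was 12.9%, 16.5% and 14.1% with kainate, nicotine and saline. There Gja1 reached 27.4% with kainate and Aqp4 22.2% with saline. The high Glul arrays in the hippocampus carried the same replicate numbers in all groups. Replicate 1 had signals of 3998.5 with kainate, 3789.1 with nicotine and 3631.7 with saline, and replicate 5 had 3519.7, 3600.2 and 3749.8. Replicate 3 had 1845.2, 1562 and 2269.7, and replicate 4 had 2058.2, 1851.6 and 2072.5. The dimmer Glul probe set did not follow this order: its correlation with the brighter one after group means were removed was -0.37 over the hippocampal arrays and 0.43 over the neocortical arrays, as a description over arrays that share groups and scaling. In the dimmer probe set, replicates 3 and 4 were the highest with kainate (2091.2 and 2167.2) and with nicotine (2384.1 and 2260.4). With saline replicate 1 was the highest (1819.9). The labels do not say what a shared number stands for.

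**Figure D5:**
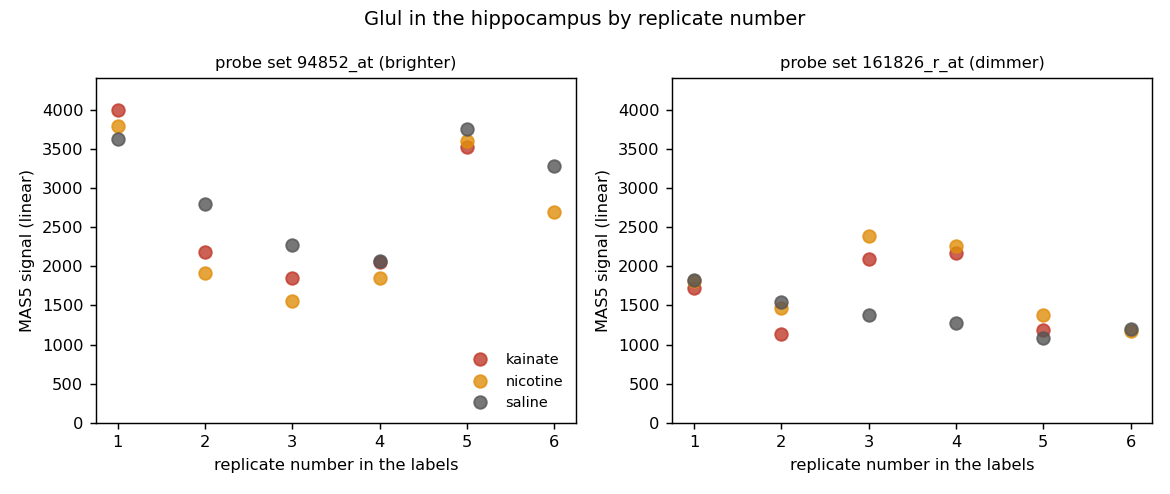
MAS5 signal (linear scale from 0) of both Glul probe sets in the hippocampus against the replicate number in the labels, with 1 point per array; there is no kainate replicate 6. For the brighter probe set, replicates 1 and 5 lie at 3519.7 or above in all groups and replicates 3 and 4 at 2269.7 or below, an order that the dimmer probe set does not show.

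Across the 34 arrays Apoe and Clu had a correlation of 0.91, and Aqp4 and Ptprz1 of 0.88, as descriptions over arrays that share group means and scaling. After the group means were removed the Apoe and Clu value was 0.52, with 0.27 over the hippocampal arrays and 0.91 over the neocortical arrays, and the Aqp4 and Gja1 value was 0.52. Aqp4 and Apoe gave 0.80 in levels but -0.26 after group means were removed, and -0.69 over the neocortical arrays. Dio2 gave -0.77 with Ptprz1 and -0.75 with Aqp4 in levels, and -0.12 and 0.19 after group means were removed.

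The genes most like each member in level were found by Pearson correlation over the 34 arrays. For Aqp4 they were Cnn3 (0.93), Gfap (0.91) and Cst3 (0.91), for Apoe Mt1 (0.92), Serpina3n (0.91) and Fxyd1 (0.91), and for Clu Itgb5 (0.91), C1qc (0.91) and C1qa (0.90). Ptprz1 was most like Cst3 (0.88) and Gfap (0.87), Gja1 most like Rpl7 (0.88) and Rps4x (0.84), Dio2 most like Ctnna2 (0.83) and Septin7 (0.82), and Glul most like Hspa4 (0.75) and Hif1a (0.74). After group means were removed other genes led, such as Smap1 (0.79) for Aqp4, Rab7 (0.74) for Apoe and Cox6a1 (0.86) for Clu, while Hspa4 (0.86) still led for Glul.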

How the data were processed

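The authors deposited MAS5 signal intensity values on a linear scale. The tool is named, without a version, per the submitters' processing notes. Per the labels' protocols, TRIzol RNA was turned into biotin-labelled cRNA. Of 12488 probe sets, 66 controls were left out. Symbols came from the platform annotation: 10833 probe sets had 1 symbol, 396 several and 1193 none. The log2 scale carried a pseudocount of 16, so changes of dim genes are understated. Probe sets at or above the 30th percentile of mean level were tested, 8695 in each comparison. limma 3.58.1 in R 4.3.3 (lmFit, eBayes with trend) gave log2 fold changes, SE and p-values, adjusted by Benjamini-Hochberg over all tested probe sets and called under 0.05. Treatments were compared within the 17 arrays of a region, and regions over all 34 arrays as independent, since the labels do not tie arrays to mice. Precision is limited by the number of arrays. The members and gene lists were chosen with earlier results of these data known. Named genes were all members, from each list at most the 4 called genes with the smallest adjusted p, and the 5 genes most like each member. Between the kainate and nicotine hippocampus, correlations of deviations with the same replicate number were 0.12 to 0.28, all over a set threshold of 0.1. In no other pair of groups were all of them over 0.1. What a shared number stands for is not given, and the main fits used no replicate block. The script was run on simulated data with noise independent between arrays. That run does not cover array clusters, shared replicate numbers or arrays that share a mouse. Alternatives were the pseudocount, the filter, the scaling, blocks, left-out arrays and the mean of all probe sets. Figures used Python 3.11.15 and matplotlib 3.10.9.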

Additional observations from a re-analysis of the deposited data

Results flagged for a closer look

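Among 42 groups of a member's signals, 3 held an array far from the others, and chance alone gives about 1 in 20. Ptprz1 in saline hippocampus replicate 2 had a signal of 1200.1, with the nearest array at 1568.5. Gja1 in nicotine hippocampus replicate 1 had 12347.1, with the nearest at 10162.7. Gja1 in nicotine neocortex replicate 6 had 5516.9, with the nearest at 8047.4. The kainate effect differed between the hippocampus and the neocortex for Apoe by 0.60 on the log2 scale (limma adjusted p = 0.0012) and for Clu by 0.64 (limma adjusted p = 0.0199).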

How the results depend on the processing

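No called value changed sign under any alternative, and 74 values that passed no test did. Of the 7 members, those called between kainate and saline in the hippocampus numbered 2 within the largest control cluster (Aqp4 and Clu, 3 arrays against 3) and 3 with the mean of all probe sets of a gene, which brings in the dim Apoe probe set, against 5 in the main fit and 5 to 6 with an array left out. With the control cluster as a block, 1 was called between kainate and saline in the neocortex and 1 between kainate and nicotine there (Dio2, adjusted p = 0.0487 and 0.0286), against 0. With the mean of all probe sets, 2 were called between kainate and nicotine in the hippocampus and 3 between the saline regions, against 5 each (4 to 5 with an array left out). For the difference of the kainate effect between regions, 1 was called with median centring, 1 within the largest cluster and 1 with the mean of all probe sets, against 2 (1 to 2 with an array left out). Nicotine gave 0 throughout. Over all probe sets, kainate against saline in the hippocampus gave 243 calls (160 higher, 83 lower), 443 with median centring (130 higher, 313 lower), which moved the median of all probe sets to -0.10, and 88 (79 higher, 9 lower) in the largest cluster. Kainate against nicotine in the hippocampus gave 210 calls and 101 in that cluster, the saline regions 917 and 603, and the regional difference 69 (63 higher, 6 lower), 47 with median centring (35 higher, 12 lower) and 37 in that cluster. Within that cluster the hippocampal kainate log2 differences were 0.88 for Aqp4, 0.52 for Apoe, 0.86 for Clu, 0.46 for Ptprz1 and 0.51 for Gja1. The replicate block changed no member's call: it gave 5 members and 323 probe sets for kainate against saline in the hippocampus, and 5 and 255 for kainate against nicotine there, where 4 of 5 numbers matched best with their own. In the other pairs of groups not all same-number correlations were over 0.1. A pairing was neither established nor excluded in any pair of groups. For kainate and saline in the hippocampus 3 of 5 numbers matched best with their own. The mean correlation there was 0.08 with the same number and -0.02 with other numbers. In the neocortex the block gave 3 probe sets for kainate against saline, and 5 for kainate against nicotine, against 1 and 3. With the control cluster as a block these were 4 and 7, with quantile normalization 2 and 4, and for kainate against nicotine 1 with median centring and 0 in the largest cluster. Nicotine against saline in the hippocampus gave 1 probe set in that cluster. The causes were not tested.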
